A study of Arabidopsis thaliana with 18 samples.

Results

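The genes described here were read in Arabidopsis thaliana rosettes of the accession Cvi-0 and were close to absent from those of the accession Col-0. A gene was taken where its level in CPM (counts scaled to a library total of 1000000) reached 2 in all 6 Cvi-0 libraries and stayed under 0.2 in all 6 Col-0 libraries. Of 32678 genes in the files, 55 met both limits, and 65 met the reverse rule. Cvi-0 is an ozone-sensitive accession from the Cape Verde islands, and Col-0 is the laboratory accession whose genome is the reference. Col-S is nearly isogenic to Col-0 and received the ozone sensitivity of its other parent, Cvi-0, by introgression. Whole rosettes of plants 3 weeks old were taken as untreated controls or after 2 h in 350 ppb ozone, with 3 biological replicates in each of the 6 groups and 10 to 15 rosettes pooled into a library. Col-S is 1 line, so values for it describe that line. The genes were chosen by the measured CPM of both accessions, in control and ozone libraries alike, so the contrast of Cvi-0 with Col-0 is described here and not tested.

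Library totals ran from 14905841 to 26171613 counts, and 3 counts in a library corresponded to 0.115 to 0.201 CPM. The limit of 0.2 CPM in Col-0 was therefore a matter of a few reads in each library, and exact intervals and floors cover counting error only. Intervals on the log2 scale come from the SE of the fit, which also holds the spread between libraries. The summed level of 4 rosette leaf markers was 41690 to 46250 CPM across control libraries of all genotypes, that of 6 root markers was at most 0.507 CPM in any library, and that of 7 flower markers was 0.655 to 3.82 CPM.

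Natural accessions of Arabidopsis differ by single bases and also by whole stretches that are present, missing, rearranged or duplicated. Genes that differ in presence or activity between accessions are often members of expanded families, copies derived from mobile elements, or models that carry no intact reading frame in the reference. Silencing by DNA methylation and small RNAs also differs between accessions and keeps many such sequences quiet in leaves. Reads were aligned to the Col-0 reference, so a sequence that Cvi-0 alone carries has no gene model in these counts and can be read only through a similar sequence in Col-0.

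By the RefSeq annotation, 33 of the 55 genes were protein coding, 20 were pseudogenes (models without an intact reading frame in Col-0) and 2 were noncoding RNAs. Pseudogenes made up 36.4% of the set. They were 12.1% of all 32399 nuclear genes, 32.7% of the 10955 nuclear genes under 0.2 CPM in all Col-0 libraries, and 0.438% of the 15078 genes at 2 CPM or more in all Cvi-0 libraries. A named product was given for 24 of the 33 coding genes. By words in the product, they included 4 transcription factor models, 3 transferase models, and 1 each of an F-box associated protein, a kinase, a cytochrome P450 and a disease resistance protein. The transferase models were the glutathione transferases AT1G27140 and AT1G59670, and AT5G48110. The last was counted through its superfamily name, terpenoid cyclases/protein prenyltransferases. Among the pseudogenes, AT5G27927 (SADHU5-2) is annotated as a Sadhu retrotransposon and AT5G28065 as a CACTA-like transposase copy.

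Several of the genes shared stretches of sequence with each other, which the rule did not ask for. Of 1485 possible pairs, 7 shared at least one identical window of 50 bases in the Col-0 reference, and all 7 shared 50 or more such windows. These pairs involved 11 of the 55 genes, and the share of such pairs among other genes is not given here. The closest relatives were AT4G04030 (OFP9), AT3G54730 and AT2G19850, which lie on chromosomes 4, 3 and 2 and are all annotated as transcription repressors. OFP9 belongs to the OVATE family of plant transcriptional repressors. By edit distance over the longer of each pair of models, AT4G04030 and AT2G19850 were 97.6% identical, AT4G04030 and AT3G54730 90.4%, and AT3G54730 and AT2G19850 89.6%. The longest run common to all 3 was 184 bases. The next lines give 100 bases of each (RefSeq, TAIR10.1, sense strand, 5′ to 3′) at chr4:1937835-1937934 on the minus strand, chr3:20259168-20259267 on the plus strand and chr2:8568612-8568711 on the plus strand. They show a part where the copies are close, and capitals mark the 3 positions that differ. AT4G04030 and AT3G54730 are identical in this part, whereas over the whole models AT4G04030 is closest to AT2G19850.
AT4G04030: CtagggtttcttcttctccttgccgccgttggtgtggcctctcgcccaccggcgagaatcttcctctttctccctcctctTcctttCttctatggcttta
AT3G54730: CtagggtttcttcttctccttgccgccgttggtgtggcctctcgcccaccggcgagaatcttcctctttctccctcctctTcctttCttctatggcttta
AT2G19850: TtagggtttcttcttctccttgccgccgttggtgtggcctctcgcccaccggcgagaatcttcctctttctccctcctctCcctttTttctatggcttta

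After these 3, most windows were shared by AT2G05642, an OB-fold nucleic acid binding protein, and AT3G60920, a BEACH domain protein, with 415 windows and an identical run of 324 bases. These windows were 13.7% of the first and 4.30% of the second. AT5G28065 and AT5G33392 shared 108, which was 3.41% and 4.11% of the 2 models. Pseudogenes also made up the pairs printed next. AT2G06490 and AT3G30218 shared 258 windows, which was 11.5% of the first and 7.5% of the second. AT2G05700 and AT3G45270 shared 98 windows, 4.58% and 4.47% of the 2 models. The stretches below are chr2:2573708-2573807 on the minus strand for AT2G06490, chr3:11868478-11868577 on the plus strand for AT3G30218, chr2:2135851-2135950 on the plus strand for AT2G05700 and chr3:16602014-16602113 on the minus strand for AT3G45270. They are shown because both genes of each pair changed the same way after ozone, and capitals mark the 3 positions that differ within each pair.
AT2G06490: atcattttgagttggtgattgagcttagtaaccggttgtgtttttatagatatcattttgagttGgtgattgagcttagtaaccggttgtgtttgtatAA
AT3G30218: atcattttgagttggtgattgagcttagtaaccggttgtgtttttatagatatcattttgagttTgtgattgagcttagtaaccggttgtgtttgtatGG
AT2G05700: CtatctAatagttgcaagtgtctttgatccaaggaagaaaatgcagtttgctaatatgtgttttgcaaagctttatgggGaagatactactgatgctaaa
AT3G45270: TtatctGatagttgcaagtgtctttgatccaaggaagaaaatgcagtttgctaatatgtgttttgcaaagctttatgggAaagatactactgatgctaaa

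How reads that fit several places were counted is not given in the sources used here, so levels of genes that share windows cannot be taken as independent. Most of the set was not repetitive in the reference. For 27 genes no 50-base window occurred elsewhere in the genome, and for 42 at most 10% did. The 3 genes above 50% were AT4G04030 with 77.3%, AT3G54730 with 69.5% and AT3G25815 with 57.1%.

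In Cvi-0 the 55 genes were read at mean levels of 3.00 to 135 CPM over 6 libraries, with a median of 8.22 CPM. Means reached 10 CPM for 22 genes and stayed under 5 CPM for 15. In Col-0 the sum over all 6 libraries was 0 to 10 counts per gene, with a median of 1. No Col-0 count at all was found for 21 genes, 1 to 3 counts for 19, and 4 or more for 15.

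The 10 highest genes in Cvi-0 were AT4G16215, AT2G15555, AT2G43960, AT5G45095, AT5G15360, AT2G05642, AT2G06490, AT1G47950, AT1G63540 and AT4G29760. AT4G16215, an uncharacterized protein gene, stood at 149.8, 166.4 and 168.2 CPM in the Cvi-0 controls and at 95.3, 129.2 and 101.6 CPM after ozone, with 2 counts over all Col-0 libraries. Of its 50-base windows, 36.2% occurred elsewhere in the genome. AT2G15555, a noncoding RNA, stood at 84.0, 86.1 and 76.4 CPM in controls and 61.3, 64.7 and 59.6 CPM after ozone. Its Col-0 libraries held 7 counts in all. AT5G45095 averaged 50.6 ± 3.06 CPM and AT5G15360 44.5 ± 1.81 CPM in Cvi-0 controls (SD, n = 3). Both are uncharacterized, and they had 10 counts and 0 counts in Col-0. AT4G29760 (HTT4), a target of trans-acting small RNAs, averaged 22.9 ± 3.60 CPM in Cvi-0 controls.

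Of the 21 genes without a Col-0 count, the 5 highest in Cvi-0 were AT5G15360, AT2G06490, AT3G43833, AT1G42705 and AT5G18880. AT3G43833, an uncharacterized gene, averaged 19.9 ± 2.76 CPM in Cvi-0 controls and had a single count in Col-S. AT1G42705, a pseudogene, averaged 16.7 ± 0.484 CPM there, also with 1 count in Col-S. For 9 genes no count was found in any Col-0 or Col-S library.

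Values on either side of each limit lay close together. Just inside the lower limit in Cvi-0 were AT1G59670, AT4G04316 and AT3G33528, whose lowest Cvi-0 libraries held 2.03, 2.12 and 2.23 CPM. Just outside were AT5G28463, AT4G19470 and AT2G07215 at 1.99, 1.96 and 1.88 CPM. At the Col-0 limit the highest Col-0 libraries held 0.185, 0.180 and 0.169 CPM for AT3G60920, AT5G45095 and AT2G16670, and 0.210, 0.218 and 0.231 CPM for AT1G03106, AT1G51530 and AT1G66860 outside it.

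Reads of 4 genes may be shared with an overlapping gene. AT2G47570 overlaps AT2G47580 on the other strand by 175 bases. That partner averaged 29.4 CPM in Col-0 controls, where AT2G47570 itself had a single count over all 6 libraries. AT1G47950 overlaps AT1G47960 by 797 bases on the same strand, and that partner averaged 7.65 CPM in Col-0 and 8.70 CPM in Cvi-0 controls. AT3G60920 overlaps AT3G60910 by 45 bases. The lncRNA AT2G07213 runs antisense to AT2G07215 over 1114 bases. In Cvi-0 controls AT2G07213 averaged 11.0 ± 1.34 CPM and AT2G07215 2.25 CPM, and AT2G07215 averaged 0.0201 CPM in Col-0 controls. Whether counting used strand is not given in the sources used here.

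**Figure D1:**
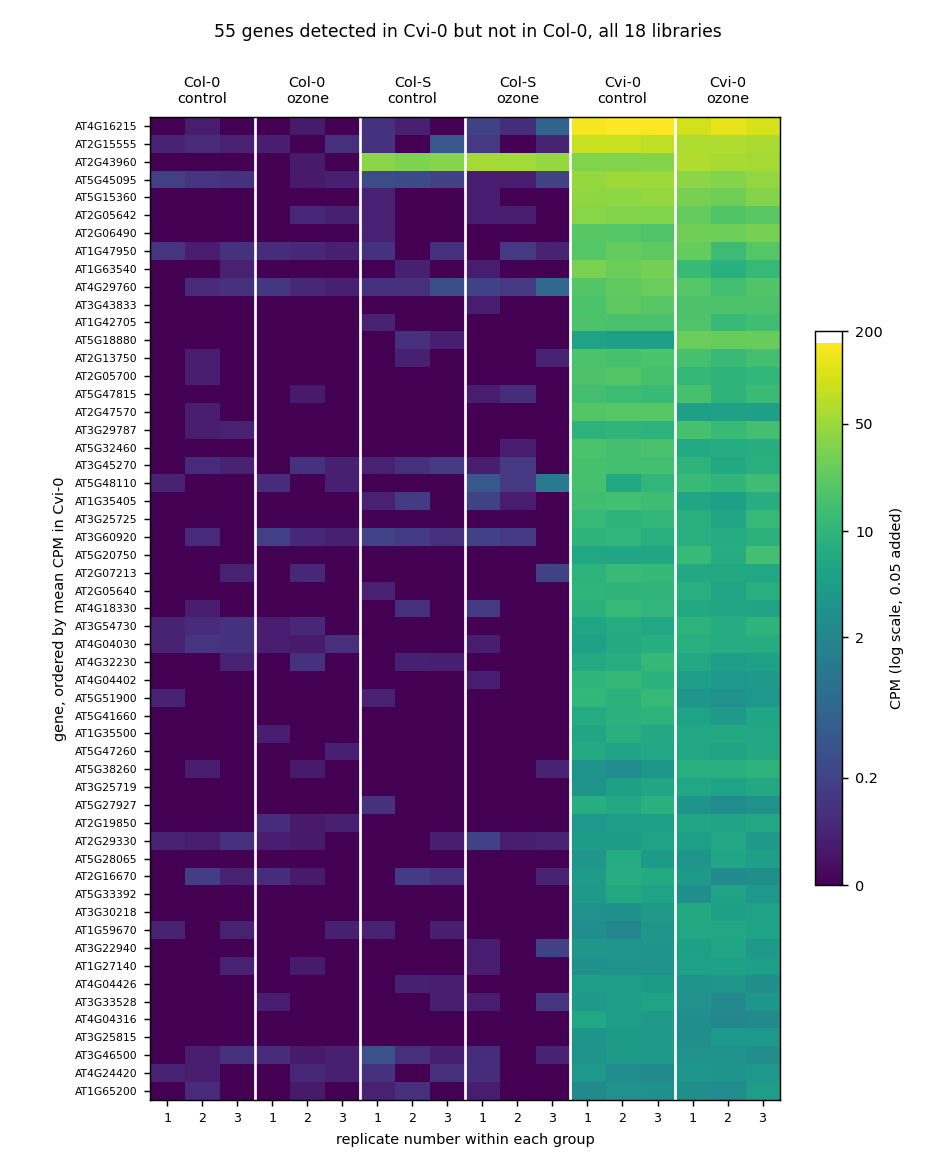
Level in CPM of the 55 genes (rows, ordered by mean level in Cvi-0) in each of the 18 libraries (columns, by group and replicate number), on a log colour scale with 0.05 added. The Cvi-0 blocks are filled by the rule; in the Col-S blocks 1 row, AT2G43960, has the brightness of Cvi-0, and 47 rows lie under 0.2 CPM in all 6 libraries.

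The level in Col-S, which the rule did not use, was near 0 for nearly all of the genes. In all 6 Col-S libraries 47 of the 55 genes stayed under 0.2 CPM, 1 gene reached 2 CPM or more, and 7 lay between. No count was found in Col-S for 16 genes. Leaving out the gene at 2 CPM, the other 54 had 0 to 34 counts over the 6 Col-S libraries, with a median of 2.

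The exception was AT2G43960 (chr2:18203312-18204912, minus strand), which encodes a protein with a SWAP/surp domain, a domain known from RNA processing factors. Col-S controls held 41.2, 34.7 and 38.5 CPM and Cvi-0 controls 35.99, 36.03 and 37.05 CPM. After ozone the Col-S libraries held 56.9, 55.1 and 45.8 CPM and those of Cvi-0 62.9, 58.5 and 56.9 CPM. The 6 Col-0 libraries held 1 count together. Control values of Col-S and Cvi-0 overlapped, and ozone values lay above control values in both genotypes without overlap. The controls of Col-S and Cvi-0 differed by 0.03 on the log2 scale (SE 0.12, edgeR adjusted p = 0.91), with a 95% interval of -0.22 to 0.27. The shares of all 20622 tested genes called in that comparison were 10.2% higher and 10.9% lower in Col-S.

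Ozone raised AT2G43960 by 0.84 on the log2 scale in Cvi-0 (SE 0.12, edgeR adjusted p = 9.2e-06) and by 0.64 in Col-S (SE 0.12, edgeR adjusted p = 0.000148). The difference of these responses, Col-S minus Cvi-0, was -0.20 (SE 0.16, edgeR adjusted p = 0.611), with a 95% interval of -0.55 to 0.15. Of all tested genes, 4.86% were called for this difference, 2.66% higher and 2.2% lower in Col-S. No 50-base window of this gene occurs elsewhere in the reference. The 300 bases around its model start are shown because it is the single gene of the set read at the Cvi-0 level in Col-S. They run over chr2:18204863-18205162 on the minus strand of the Col-0 reference (RefSeq, TAIR10.1), with 250 bases before and 50 from the start of the model in the files. Capitals mark the annotated start codon, 5 bases into the model.
AT2G43960: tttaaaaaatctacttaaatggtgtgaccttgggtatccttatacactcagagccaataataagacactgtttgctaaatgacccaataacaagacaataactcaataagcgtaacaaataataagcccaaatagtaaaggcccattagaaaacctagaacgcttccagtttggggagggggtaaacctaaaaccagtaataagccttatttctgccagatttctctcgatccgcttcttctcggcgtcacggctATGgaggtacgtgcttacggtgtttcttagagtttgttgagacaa

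Neither the W-box core (TTGAC on either strand, the core that WRKY factors bind) nor the G-box (CACGTG) is in these letters. Over windows of the same length, the W-box core was in 24 of the 55 genes, or 43.6%, and in 48.9% of 32398 nuclear genes. The G-box was in 5.46% and 7.32%. Of the genes that rose after ozone in Cvi-0, 3 of 11 had a W-box core, against 7 of 14 that fell and 14 of 30 not called.

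The 7 genes between the limits in Col-S, named after their values were seen, were AT2G15555, AT3G46500, AT3G60920, AT4G16215, AT4G29760, AT5G45095 and AT5G48110. AT5G48110, a terpenoid cyclase family gene, had 0 counts in each Col-S control and 9, 3 and 22 counts in the Col-S ozone libraries, of which the last is 1.39 CPM. With 3 counts put in place of 0 over the control group, the 34 ozone counts gave a ratio of CPM of 11.2-fold. That ratio takes the ozone counts as fixed and is not a lower bound. The exact 95% lower limit, which also allows for error in the ozone counts, lies below it. Col-S ozone replicate 3 held 22 of the 34 counts, and without that library the ratio against 3 counts was 5.41-fold. It was 7.40-fold without Col-S control replicate 2 and 7.32-fold without Col-S control replicate 3. In Col-0 the same gene had 1 count in controls and 3 after ozone. In Cvi-0 it had 15.8, 6.84 and 10.4 CPM in controls and 12.0, 9.97 and 14.1 CPM after ozone, and was not called (log2 fold change 0.26, SE 0.37, edgeR adjusted p = 0.549). AT4G16215 went from 3 to 16 counts between Col-S controls and Col-S ozone, a ratio of CPM of 5.26 (exact 95% interval 1.505 to 28.16), with overlapping libraries. The ratio was 2.70 without Col-S ozone replicate 3, which held 10 of the 16 counts, 10.8 without Col-S control replicate 1 and 3.44 without Col-S control replicate 3.

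In Col-S the ozone test could be read for AT2G43960 alone. The other 54 genes passed the filter for low counts through Cvi-0, and with only Col-S libraries in the fit 1 of the 55 genes was left to test, AT2G43960, which was called higher (log2 fold change 0.66, SE 0.12, edgeR adjusted p = 0.00136). In the fit of all libraries edgeR called 4 of the 55 genes higher (background 34.3%) and 0 lower (background 34%), and 2 of the 4 had ozone values above all control values (background 30.2%). A call in either direction was given to 68.3% of all tested genes, and since 54 genes were near 0 nothing is read from the counts against these shares. At an unadjusted p under 0.05 they were 6 and 0, and DESeq2 called 3 and 0. Besides AT2G43960, AT5G48110 and AT4G16215 the fourth called gene was AT2G29330, a tropinone reductase, with 1 count in controls and 6 after ozone (ratio of CPM 5.92, exact 95% interval 0.718 to 272). With the replicate number as a block AT2G29330 was not called (edgeR adjusted p = 0.0654), which left 3.

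**Figure D2:**
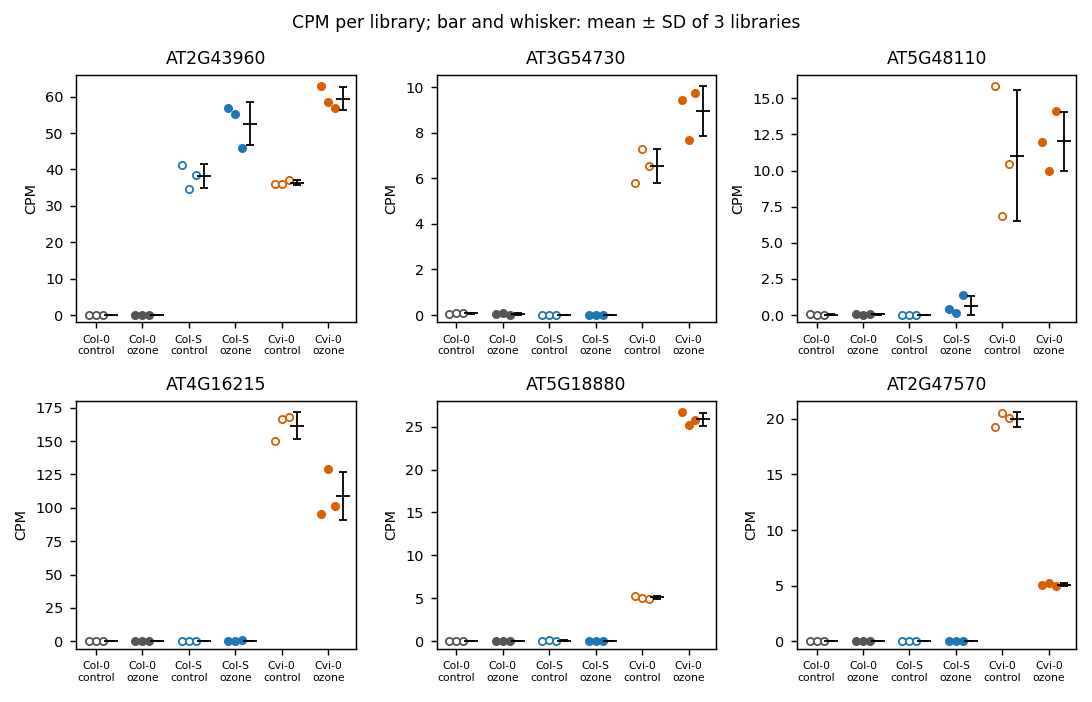
Level in CPM of 6 of the genes in each library, by group (open points, controls; filled points, ozone; bars and whiskers, mean ± SD of 3 libraries). AT2G43960 is at 34.7 to 56.9 CPM in Col-S, AT3G54730 has no count there, and AT5G48110 reaches 1.39 CPM in a single Col-S ozone library.

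Positions were compared with those of all genes. The 55 genes fell on all 5 chromosomes, with 8, 12, 12, 9 and 14 on chromosomes 1 to 5. Chromosome 1 held 14.5% of the set and 25.3% of all nuclear genes, and chromosome 2 held 21.8% and 16.4%. The other shares were 21.8% and 20.2% on chromosome 3, 16.4% and 15.5% on chromosome 4, and 25.5% and 22.7% on chromosome 5. Of 121 bins of 1 Mb, 42 held at least one of the genes, and 7 held 2 or more.

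The fullest bin, from 2 to 3 Mb on chromosome 2, held 5 of the genes among 229. It included the single run of 3 neighbours with at most 5 annotated genes between them, AT2G05640, AT2G05642 and AT2G05700, at chr2:2091129-2136771. AT2G05640, a pseudogene, averaged 9.97 ± 0.281 CPM in Cvi-0 controls, AT2G05642 37.6 ± 1.66 CPM and AT2G05700 17.4 ± 1.495 CPM. A shorter run, the pair AT3G25719 and AT3G25725 on chromosome 3, spanned 13.2 kb, and neither gene had a count in Col-0 or Col-S.

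Pseudogenes were a median of 6.01% of the genes within 500 kb of the 55 genes, 2.5% around all nuclear genes, and 1.73% around genes at 2 CPM or more in Cvi-0. Of 107 genes that directly flank the 55 and are not in the set, 38 were at 2 CPM or more in all Col-0 libraries, 57 were under 0.2 CPM in all of them, and 12 lay between. Over all nuclear genes 47.0% and 33.8% fell in the first and second class. At least one flank was at 2 CPM or more in Col-0 for 31 of the 55 genes, and both flanks for 7.

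Col-S holds segments of Cvi-0 in a Col-0 genome, so the neighbours of each gene were compared between the 3 genotypes. Genes called with a difference of at least 2-fold between controls of Cvi-0 and of Col-0 were placed on an index, where 0 is the Col-0 level and 1 the Cvi-0 level of log2 CPM in controls, and Col-S was taken as Cvi-like above 0.5. Outside the set, 249 of 2241 such genes were Cvi-like in Col-S. Of the 51 genes of the set with at least 5 such genes within 500 kb, 2 had most of them Cvi-like. These were AT2G43960 with 17 of 23 and AT3G54730 with 17 of 18.

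AT3G54730 (chr3:20259003-20260453, plus strand), one of the OFP9-related copies, nevertheless had no count in any Col-S library. Cvi-0 controls held 5.78, 7.30 and 6.56 CPM and Cvi-0 ozone libraries 9.43, 7.69 and 9.73 CPM, while Col-0 held 8 counts in all. Its neighbour AT3G54770, at a distance of 14.7 kb, had an index of 1.01, and AT3G54366, at 126 kb on the other side, had 1.18. Of the windows of AT3G54730, 69.5% occur elsewhere, and the part of the copies in its counts was not tested. AT2G19850 had no count in Col-S either, and AT4G04030 had 1.

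AT3G46500, an oxygenase of the 2-oxoglutarate and iron type at chr3:17120480-17122745, had 10 of 36 neighbours Cvi-like. The nearest on either side, AT3G46490 at 4.85 kb and AT3G46530 at 9.89 kb, had indices of 0.09 and 0.17. The gene itself averaged 3.65 ± 0.537 CPM in Cvi-0 controls and had 12 counts over the Col-S libraries and 7 over those of Col-0. AT2G47570, at chr2:19515898-19517361, had 3 of 11 neighbours Cvi-like and no count in Col-S.

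**Figure D3:**
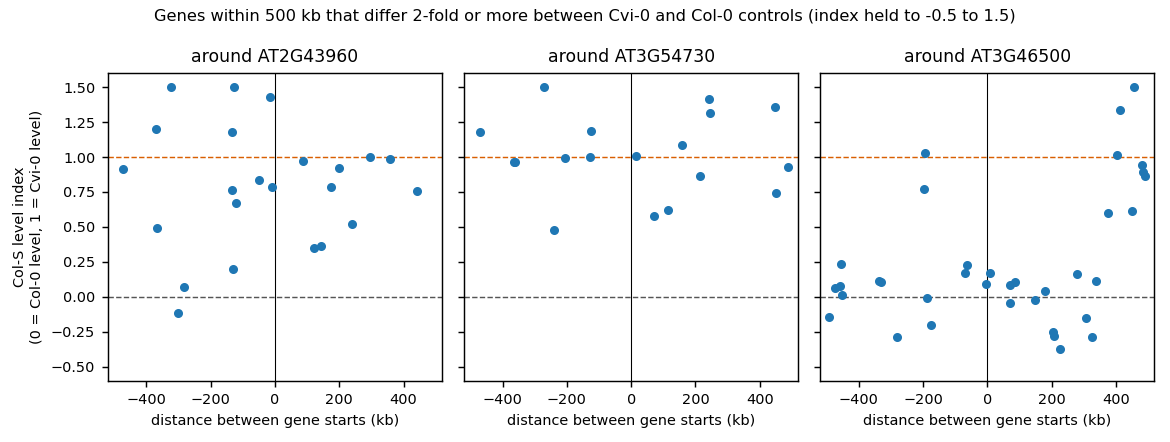
Level of Col-S controls on an index from the Col-0 level (0) to the Cvi-0 level (1), for genes at least 2-fold different between Cvi-0 and Col-0 controls, against the distance in kb between gene starts and 3 of the genes; index values are drawn held between -0.5 and 1.5. Above 0.5 lie 17 of 23 genes around AT2G43960, 17 of 18 around AT3G54730 and 10 of 36 around AT3G46500, where the nearest genes on both sides are near 0.

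The ozone response was tested in Cvi-0, where all 55 genes entered the fit over 20622 genes. Ozone is an oxidant that enters leaves through the stomata and triggers a wide change of transcripts. The rule asked for 2 CPM in all Cvi-0 libraries. A gene that ozone took below 2 CPM, or raised from below it, could therefore not be in the set. Both directions are bounded by that, and so are the counts of 2-fold changes below. AT1G59670, AT5G38260 and AT1G27140 had Cvi-0 controls at 2.03 to 3.60, 2.56 to 3.60 and 2.92 to 3.13 CPM. A 2-fold fall would have taken these genes out of the set. Rosette tissue is a mixture, so fewer cells of a type and less RNA per cell cannot be told apart. The summed level of the leaf markers also moved with ozone, from 41690 to 44150 CPM in Cvi-0 controls to 14260 to 17010 CPM, and its part in the responses below was not tested.

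After ozone 11 of the 55 genes were higher (20%, background 34.5%), 14 were lower (25.5%, background 36.1%) and 30 were not called. Either call was given to 70.6% of all tested genes. That background holds genes of all levels, whereas the set had a median of 8.22 CPM in Cvi-0. Shares for genes of like level are not given here, so the lower shares are not read as a weaker response. All 25 called genes had 3 ozone values that did not overlap the 3 control values, where the backgrounds for such calls were 31.9% higher and 35.6% lower. A change of at least 2-fold was called for 4 higher genes (background 23.1%) and 6 lower (background 16.9%). The median log2 fold change was -0.11 over the set and -0.05 over all tested genes. The balance of directions depended on the scaling. With upper-quartile factors, which moved the median of all genes by -0.33, 7 genes were higher and 25 lower, so that 21.9% of calls were higher in place of 44%. Over all tested genes the same factors called 27.5% higher and 48% lower, and the share of calls that were higher went from 48.9% to 36.4%. By class, 7 coding genes were higher and 8 lower, 4 pseudogenes were higher and 6 lower, and neither noncoding RNA was called.

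The strongest rise was that of AT5G18880 (chr5:6300535-6301422, minus strand), annotated as related to reverse transcriptase, the enzyme that retroelements use to copy themselves. It went from 5.33, 5.04 and 4.95 CPM to 26.7, 25.2 and 25.8 CPM in Cvi-0, a log2 fold change of 2.47 (SE 0.17, edgeR adjusted p = 1.03e-07). The replicates within each group lay close together and the groups were far apart. It had no count in Col-0 and 3 counts in Col-S. AT5G38260, a protein kinase, went from 3.12, 2.56 and 3.60 to 8.18, 8.19 and 9.46 CPM, with a log2 change of 1.61 (SE 0.24, edgeR adjusted p = 2.15e-05).

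Both glutathione transferases of the set rose. These are tau class enzymes, which couple glutathione to reactive compounds and are a plant-specific class. GSTU15 (AT1G59670) went from 2.66, 2.03 and 3.60 to 6.43, 6.46 and 5.43 CPM, which is 1.29 on the log2 scale (SE 0.27, edgeR adjusted p = 0.000607). GSTU14 (AT1G27140) went from 2.92, 3.13 and 3.12 to 5.24, 5.12 and 4.83 CPM, with a log2 fold change of 0.86 (SE 0.24, edgeR adjusted p = 0.00548). For both, all ozone libraries lay above all controls. GSTU14 was no longer called with upper-quartile factors (edgeR adjusted p = 0.0616).

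Among pseudogenes, AT5G20750 rose by 1.04 (SE 0.24, edgeR adjusted p = 0.00358), from 6.10 ± 0.160 to 11.6 ± 3.79 CPM (SD, n = 3 libraries each, fit across all genes). The related pair AT3G30218 and AT2G06490 rose by 0.95 and 0.74. AT3G30218 had 2.99, 2.90 and 3.98 CPM in controls and 6.87, 4.96 and 5.57 CPM after ozone, and AT2G06490 had 20.3, 19.6 and 18.1 CPM and then 28.9, 28.0 and 31.7 CPM. AT3G29787 rose by 0.70. Of the transcription repressor copies, AT2G19850 rose by 0.60 (edgeR adjusted p = 0.0145) and AT3G54730 by 0.58 (edgeR adjusted p = 0.0121), while AT4G04030 was at 0.33 (SE 0.19, edgeR adjusted p = 0.133) and was not called. With upper-quartile factors AT2G19850 was at 0.27 (edgeR adjusted p = 0.218), AT3G54730 at 0.25 (edgeR adjusted p = 0.239) and AT3G29787 at 0.37 (edgeR adjusted p = 0.0521), and none of these 3 was called.

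The deepest fall was that of AT2G47570 (chr2:19515898-19517361, minus strand), a gene for ribosomal protein L18 of the large subunit. It went from 19.2, 20.5 and 20.1 CPM to 5.02, 5.24 and 4.96 CPM, with a log2 change of -1.84 (SE 0.16, edgeR adjusted p = 1.01e-06). Its overlapping partner AT2G47580 averaged 32.8 CPM in Cvi-0 controls and 27.9 CPM after ozone. The cytochrome P450 gene AT5G51900, of a large family of oxidising enzymes, went from 10.8, 9.28 and 11.4 to 3.60, 2.95 and 3.69 CPM (log2 fold change -1.49, SE 0.23, edgeR adjusted p = 4.87e-05). AT1G63540, a hydroxyproline-rich glycoprotein, went from 32.9, 27.0 and 30.3 to 12.4, 8.63 and 11.5 CPM (log2 fold change -1.34, SE 0.19, edgeR adjusted p = 1.07e-05). In each of these 3 genes the ozone libraries all lay below the controls.

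The retrotransposon SADHU5-2 (AT5G27927) fell by 1.19 on the log2 scale, from 7.86, 6.30 and 8.50 to 3.33, 2.56 and 3.15 CPM (SE 0.27, edgeR adjusted p = 0.00192). AT4G04402, annotated as a phosphorelay mediator, a carrier of phosphate in cytokinin-type signalling, fell by 1.17 (SE 0.20, edgeR adjusted p = 0.000284). The pseudogene AT1G35405 fell by 1.05 (SE 0.26, edgeR adjusted p = 0.0024), from 14.0 ± 0.840 to 6.23 ± 1.51 CPM. The B3 family transcription factor gene AT5G32460 fell by 0.96, from 16.2 ± 0.634 to 7.56 ± 0.427 CPM. The related pseudogenes AT3G45270 and AT2G05700 fell by 0.73 and 0.58, and AT2G05642 by 0.69. AT3G60920, which shares windows with AT2G05642, was at -0.08 (SE 0.23, edgeR adjusted p = 0.774).

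Of the 11 genes that share windows with another of the set, 4 rose, 3 fell and 4 were not called. Their directions are not independent, since shared reads may be counted to either gene. The other called genes were AT4G04316, AT2G16670, AT5G41660 and AT4G18330, which fell by 0.94, 0.93, 0.63 and 0.61. Of the 10 highest genes of the set, 6 were not called. AT4G16215 was at -0.44 (SE 0.19, edgeR adjusted p = 0.052) with no overlap between its groups, AT2G15555 at -0.28, AT5G45095 at -0.19 and AT5G15360 at -0.32. AT5G47260, a putative disease resistance protein, was at 0.10 (SE 0.21, edgeR adjusted p = 0.679).

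The genes that were not called lay on both sides of 0. AT3G22940, an F-box associated protein of ubiquitin tagging, had 3.38, 3.36 and 3.28 CPM in controls and 5.07, 5.96 and 3.82 CPM after ozone (log2 fold change 0.71, SE 0.30, edgeR adjusted p = 0.0522), with no overlap between the groups. The lncRNA AT2G07213 went from 9.55, 12.2 and 11.2 to 6.60, 6.85 and 6.17 CPM, also without overlap (log2 fold change -0.62, SE 0.27, edgeR adjusted p = 0.051). Both lay just past the threshold, and with only Cvi-0 libraries in the fit both were called (edgeR adjusted p = 0.00559 for AT3G22940 and 0.00298 for AT2G07213), as was AT4G16215 (edgeR adjusted p = 0.0191). In all, that fit called 13 of the 55 genes higher and 19 lower, so the number not called depended on the libraries fitted. AT4G24420, an RNA-binding protein with an RRM motif, averaged 2.88 ± 0.713 and 3.51 ± 0.236 CPM, and AT1G65200, related to ubiquitin hydrolases, 2.74 ± 0.350 and 3.26 ± 1.08 CPM. The transposase copy AT5G28065 had 3.44, 7.57 and 4.14 CPM in controls and 3.38, 5.90 and 4.90 CPM after ozone, and its relative AT5G33392 had 3.83, 6.84 and 5.48 CPM and then 2.78, 5.29 and 3.69 CPM. In both genes replicate 2 was the highest library of each group. At an unadjusted p under 0.05 the counts over the 55 genes were 12 higher and 17 lower. The shares of all tested genes at that threshold are not given here, so nothing is read from these counts.

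**Figure D4:**
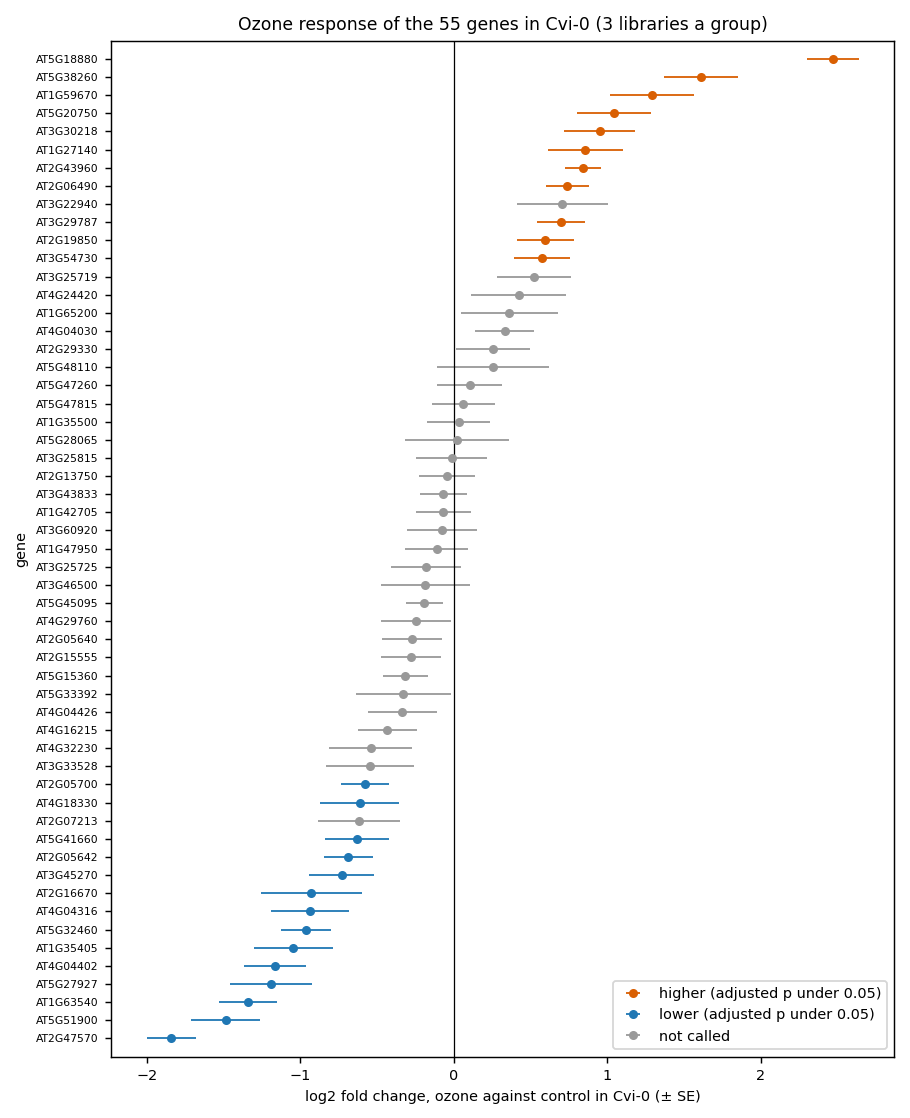
Log2 fold change after ozone in Cvi-0 (x axis, with its SE from the fit) for each of the 55 genes (y axis, ordered by the change). The 11 genes called higher reach 2.47 in AT5G18880, the 14 called lower reach -1.84 in AT2G47570, and the 30 grey genes did not pass the test.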

How the data were processed

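Messenger RNA was sequenced from whole rosettes with the TruSeq RNA kit, version 2, per the labels' protocols. What the authors deposited are raw counts for each gene, as whole numbers without normalization. TAIR10 is the build, and HTSeq, TopHat2, SAMtools and FastQC are the tools, that stand in the submitters' processing notes. For versions, strand setting and reads that map to several places, the sources used here give nothing. CPM used the total count of each library.

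All 18 libraries entered 1 quasi-likelihood fit in edgeR 4.0.16 (R 4.3.3; jsonlite 2.0.0 and data.table, version 1.17.8, read the files) with TMM factors and 1 mean per group, which left 12 residual degrees of freedom. The filter for low counts kept 20622 genes. The call needed an adjusted p (Benjamini-Hochberg, over these genes) below 0.05, and the fit was tested on simulated data. The simulated libraries all started from the mean levels of Cvi-0, so they do not test genes near 0 in Col-0 and Col-S. They had the same spread for all genes and no effect of replicate number, and their outcome is not given here. Alternatives used DESeq2 1.42.0, other scaling factors, other limits, a replicate block and each library left out. Between Col-S control and Col-S ozone, libraries with the same number correlated at 0.279, 0.139 and 0.128 in their deviations from group means, so the replicate numbers were read as pairs there. Values are still those of the fit without the block unless stated, and the blocked call is given where it differs. Python 3.11.15 handled positions and sequences.

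Classes, products and sequence came from RefSeq on TAIR10.1. All 55 genes matched by code and overlapped, 40 with both ends identical; coordinates of genes are those of the files. Named genes were those at 2 CPM or more in Col-S, the 10 highest in Cvi-0, the 6 highest and 6 lowest ozone changes called without overlap, runs of 3 or more neighbours, the 3 nearest each side of a limit, and the 5 highest without a Col-0 count. Others were chosen after their values were seen. Members, lists and tests were chosen with earlier results of these data known.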

Additional observations from a re-analysis of the deposited data

How the results depend on the processing

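Counts per gene near 0 in Col-0 and Col-S rest on a few reads, so depth limits what can be said there. The number of genes was 29 with 5 CPM in place of 2 CPM in Cvi-0 and 21 where no Col-0 count was allowed, and 43 to 76 with the other limits tried and TMM-scaled CPM. It was 55 to 56 with each library left out. The number of genes at 2 CPM or more in Col-S was 1 with each Col-S limit, TMM-scaled CPM and left-out Col-S library; that gene, AT2G43960, has 1 Col-0 count and is outside the set where none is allowed. Those under 0.2 CPM in Col-S were 47 to 49 with a library left out. With the other low limits tried in Col-S and TMM-scaled CPM, the number under the limit was 34 to 51. With upper-quartile factors 7 genes were higher and 25 lower after ozone in Cvi-0, and 2 were lower in Col-S; GSTU14 (AT1G27140), AT2G19850, AT3G29787 and AT3G54730 were no longer called higher in Cvi-0. With only the Cvi-0 libraries in the fit, 13 genes were higher and 19 lower after ozone in Cvi-0. These included the 11 and 14 of the main fit, and the shares of all genes called in that fit are not given here. With only the Col-S libraries in the fit, 1 gene was higher after ozone in Col-S, the single gene that passed the filter there. With a library left out the calls in Cvi-0 were 10 to 12 higher and 11 to 16 lower, and those in Col-S 3 to 6 higher and 0 to 1 lower, the 1 being without Col-S control replicate 1 or Col-S ozone replicate 3. AT2G43960 was not called for the difference of response or between controls in any alternative (0 to 0); its difference between controls was -0.0485 on the log2 scale without Col-S control replicate 1, the lowest, and 0.0915 without Col-S control replicate 2, the highest. Of 384 values of the genes named for their ozone change or their level in Col-S, 382 kept direction and call, 1 lost its call and 1 changed sign. Other causes were not tested.

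Same-numbered libraries correlated at 0.04 to 0.448 in their deviations from group means, over 0.1 in 35 of 45 cases, and between Cvi-0 control and Cvi-0 ozone 1 of the 3 values was 0.04, so the numbers were not taken to pair the samples there. In each pair of groups the best match was looked up for the libraries of 1 group only. These correlated best with their own number in the other group, except in 1 of 3 cases between Col-0 control and Col-0 ozone. That is a hint from the data and not from the design. With the replicate block AT2G07213, AT4G16215 and AT5G15360 (lower) and AT3G22940 (higher) were called in Cvi-0 besides those of the fit without it, so that 12 genes were higher and 17 lower in Cvi-0, and 3 were higher and 0 lower in Col-S. The block changed no other call in these comparisons besides that of AT2G29330.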
